A study of Mus musculus with 7 samples.

Results

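The genes described here are 41 genes that mark T cells and natural killer (NK) cells, out of 24240 different gene names in the table. They were chosen by name, and all 41 were found. Each gene was taken from the locus that names it, and where several loci named it, from the locus with the highest mean FPKM of both groups. FPKM counts sequenced fragments scaled to the length of the transcript and to the size of the library, so levels can be compared between genes. Of the 41 genes, 33 lay under 1 FPKM in both groups and 27 under 0.5 FPKM.

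RNA was measured in gonadal white fat of male CD-1 mouse pups at an age of 21 days after birth. The BDE-47 group holds 4 pups whose mothers were fed BDE-47, a brominated flame retardant, at 0.2 mg per kg body weight and day in tocopherol-stripped corn oil, between gestational day 8 and postpartum day 21. The control group holds 3 pups whose mothers were fed that oil alone over the same days. Each pup came from its own litter, and a further control library was left out by the authors for its low number of reads. CD-1 is an outbred stock, so the pups of a group were not genetically identical.

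The deposited table gives 1 value per group and none per pup. The spread between pups is therefore unknown, no difference below has a replicate check, and no test was run. The study gives a minimum number of reads for the libraries it kept, but the table holds no read count per gene or library, so no counting interval is given. A difference is described here as higher or lower in the group value only, and a value of 0 means that the table lists the gene at 0. The whole tissue was measured, so fewer cells of a type and less RNA per cell cannot be told apart.

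T cells recognise peptides bound to MHC molecules through an antigen receptor whose signal passes through the CD3 chains and the zeta chain into the cell. The kinases Lck and Zap70 and the adaptor Lat carry it further, and the coreceptors CD4 and CD8 mark helper and cytotoxic cells. NK cells lack this receptor and weigh activating against inhibitory receptors, many of them encoded in 1 gene cluster, before they release perforin and granzymes. Fat of adult mice holds resident T cells, regulatory T cells and NK cells, which are known for their part in fat inflammation.

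The label of the group was checked first. All 4 genes of the CD3 and zeta chains were above 0 in both groups, as were the NK cell receptor genes Ncr1 and Klrb1c, so RNA of genes of both cell types was detected, at a low level. None of the 41 genes was listed at 0 in BDE-47 fat (0 of 41), and 2 were listed at 0 in control fat. The median level of the 41 genes was 0.277 FPKM in BDE-47 fat and 0.287 FPKM in control fat. Among the 14262 named loci above 1 FPKM in at least 1 group, the median was 8.88 FPKM in BDE-47 fat and 9.0005 FPKM in control fat. The 41 genes had no such filter and 33 of them lay under 1 FPKM in both groups, so these medians are of unlike sets. Adipocyte markers defined the tissue: Fabp4, the fatty acid carrier of fat cells, was at 31652 FPKM in BDE-47 fat and 32996 FPKM in control fat, and Cfd, the adipsin gene, at 6252 FPKM in BDE-47 fat and 4182 FPKM in control fat.

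The 250 bases before the RefSeq start are shown for 6 of these genes, picked by their group values. The CD3 genes, the zeta chain gene Cd247 and the granzyme gene Gzma had higher group values in BDE-47 fat, and the Cd27 locus had a lower one. Whether these bases have a part in the differences was not tested. The sequences are from RefSeq (GRCm38.p6, the assembly of mm10) and are written 5′ to 3′ on the strand of the gene. Capitals mark matches, on either strand, to the 6 letters TGTGGT, the core bound by RUNX factors, or AGGAAG, a core bound by ETS factors. Cd3g lies at chr9:44980432-44980681 on the minus strand, Cd3d at chr9:44981536-44981785 on the plus strand, Cd3e at chr9:45009612-45009861 on the minus strand, Cd247 at chr1:165788431-165788680 on the plus strand, Gzma at chr13:113100982-113101231 on the minus strand and Cd27 at chr6:125237028-125237277 on the minus strand.
Cd3g: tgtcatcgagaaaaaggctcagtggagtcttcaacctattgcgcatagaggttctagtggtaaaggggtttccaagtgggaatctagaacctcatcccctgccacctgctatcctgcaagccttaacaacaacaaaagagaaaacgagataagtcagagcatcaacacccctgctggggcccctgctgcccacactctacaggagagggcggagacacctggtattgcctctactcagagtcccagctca
Cd3d: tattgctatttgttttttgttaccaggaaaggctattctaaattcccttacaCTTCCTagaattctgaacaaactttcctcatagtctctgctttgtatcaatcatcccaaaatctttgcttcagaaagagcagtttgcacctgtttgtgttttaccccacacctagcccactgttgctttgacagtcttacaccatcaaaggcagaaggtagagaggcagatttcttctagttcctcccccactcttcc
Cd3e: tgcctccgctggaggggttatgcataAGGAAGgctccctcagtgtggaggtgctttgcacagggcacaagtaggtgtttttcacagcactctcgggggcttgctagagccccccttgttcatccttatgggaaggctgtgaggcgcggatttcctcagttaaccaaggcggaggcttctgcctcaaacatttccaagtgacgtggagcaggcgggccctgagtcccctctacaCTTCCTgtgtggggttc
Cd247: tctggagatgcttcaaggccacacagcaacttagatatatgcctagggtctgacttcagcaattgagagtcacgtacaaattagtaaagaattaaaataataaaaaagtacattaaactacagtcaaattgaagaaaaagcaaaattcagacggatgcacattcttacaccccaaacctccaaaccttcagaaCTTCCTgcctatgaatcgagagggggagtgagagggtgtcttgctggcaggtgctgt
Gzma: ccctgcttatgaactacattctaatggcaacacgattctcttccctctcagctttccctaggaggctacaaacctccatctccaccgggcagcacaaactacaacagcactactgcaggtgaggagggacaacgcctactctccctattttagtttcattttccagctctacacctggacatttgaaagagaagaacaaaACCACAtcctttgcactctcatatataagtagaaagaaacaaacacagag
Cd27: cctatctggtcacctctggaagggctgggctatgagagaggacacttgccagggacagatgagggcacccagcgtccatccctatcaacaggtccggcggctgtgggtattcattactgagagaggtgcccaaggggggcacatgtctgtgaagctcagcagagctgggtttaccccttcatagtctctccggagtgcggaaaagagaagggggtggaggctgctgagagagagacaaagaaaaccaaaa

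Among these 6 windows, the ETS letters occur in those of Cd3d (1 match), Cd3e (2 matches) and Cd247 (1 match), and the RUNX letters in that of Gzma (1 match). The windows of Cd3g and Cd27 hold neither. Of the 41 genes, 32 have a window in the RefSeq table. TGTGGT occurs in 12 of these 32 windows (37.5%), against 14.2% of the 27025 genes with a window. The 12 include Gzma, Gzmb, Prf1, Nkg7, Ncr1, Klrk1 and Lck. AGGAAG occurs in 14 of the 32 windows (43.8%), against 29.2% of all genes. The letters TATAAA of the TATA box occur in 4 of 32 windows (12.5%, against 12.97% of all genes), and the letters TGACGTCA of the cyclic AMP response element in 1 of 32, that of Zap70 (3.12%, against 1.62%). A match is a description of the letters and does not show binding.

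The genes of the CD3 complex had higher group values in BDE-47 fat, all 4 of them and by similar folds. Of all named loci above 0 in both groups, 50.2% were higher. Cd3e encodes the epsilon chain and lies on chromosome 9 between 44998740 and 45009627 (GRCm38). It was at 1.40 FPKM in BDE-47 fat and 0.829 FPKM in control fat, 1.69-fold higher. Cd3g, the gamma chain gene (44969572 to 44980431 on the same chromosome), was at 1.19 FPKM in BDE-47 fat and 0.727 FPKM in control fat, 1.64-fold higher. Cd3d, the delta chain gene, was at 0.398 FPKM in BDE-47 fat and 0.252 FPKM in control fat, 1.58-fold higher. Cd3g and Cd3d are neighbours that are read in opposite directions from starts 1355 bases apart, and Cd3e starts 27.8 kb from Cd3d.

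Cd247 encodes the zeta chain, which the T cell receptor and several activating receptors of NK cells share. It had the highest level of the 4 genes, with 4.59 FPKM in BDE-47 fat and 3.14 FPKM in control fat, 1.46-fold higher. Its level was 3.27 times that of Cd3e in BDE-47 fat and 3.78 times in control fat. The gene (chromosome 1, 165788681 to 165877277) overlaps Pou2f1, a ubiquitous transcription factor gene on the other strand: 3007 of the 5329 bases in the exons of all Cd247 transcripts in GENCODE also lie in exons of Pou2f1. The strand setting of the counting is not given in the sources used here, so reads of both genes may be mixed in this value. Pou2f1 itself was at 2.099 FPKM in BDE-47 fat and 1.80 FPKM in control fat, with a log2 ratio of 0.22. Over the 4 genes, the summed level was 7.59 FPKM in BDE-47 fat and 4.95 FPKM in control fat, and the median log2 ratio of BDE-47 over control was 0.69.

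Only 8 of the 41 genes were above 1 FPKM in at least 1 group, and 5 of these had a higher and 3 a lower value in BDE-47 fat, where 50.8% of all named loci past the same level were higher and 47.3% lower. They were Cd247, Cd3e, Cd3g, Gzma and Ncr1 on the higher side and Cd27, Cd2 and Lat on the lower side. At 1.5-fold or more, 2 of the 8 were higher, where 2.73% of all named loci past the same level were higher, and 1 was lower, where 8% were lower. The 2 higher genes were Cd3e and Cd3g, which passed 1 FPKM in BDE-47 fat alone, so the count depends on the group in which they are high. Of the 6 genes above 1 FPKM in both groups, 3 were higher and 3 lower, where 52.4% of all named loci above 1 FPKM in both groups were higher and 45.6% lower. At 1.5-fold or more, 0 of these 6 were higher (1.9% of all such loci) and 1 was lower (4.64%). Of the 8 genes above 1 FPKM in at least 1 group, 0 were higher at 2-fold or more, where 1.04% of all named loci past that level were. At 2-fold or more 1 of the 8 was lower, the Cd27 locus, where 4.24% of the same loci were. The median log2 ratio of all named loci above 1 FPKM in at least 1 group was 0.01.

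**Figure D1:**
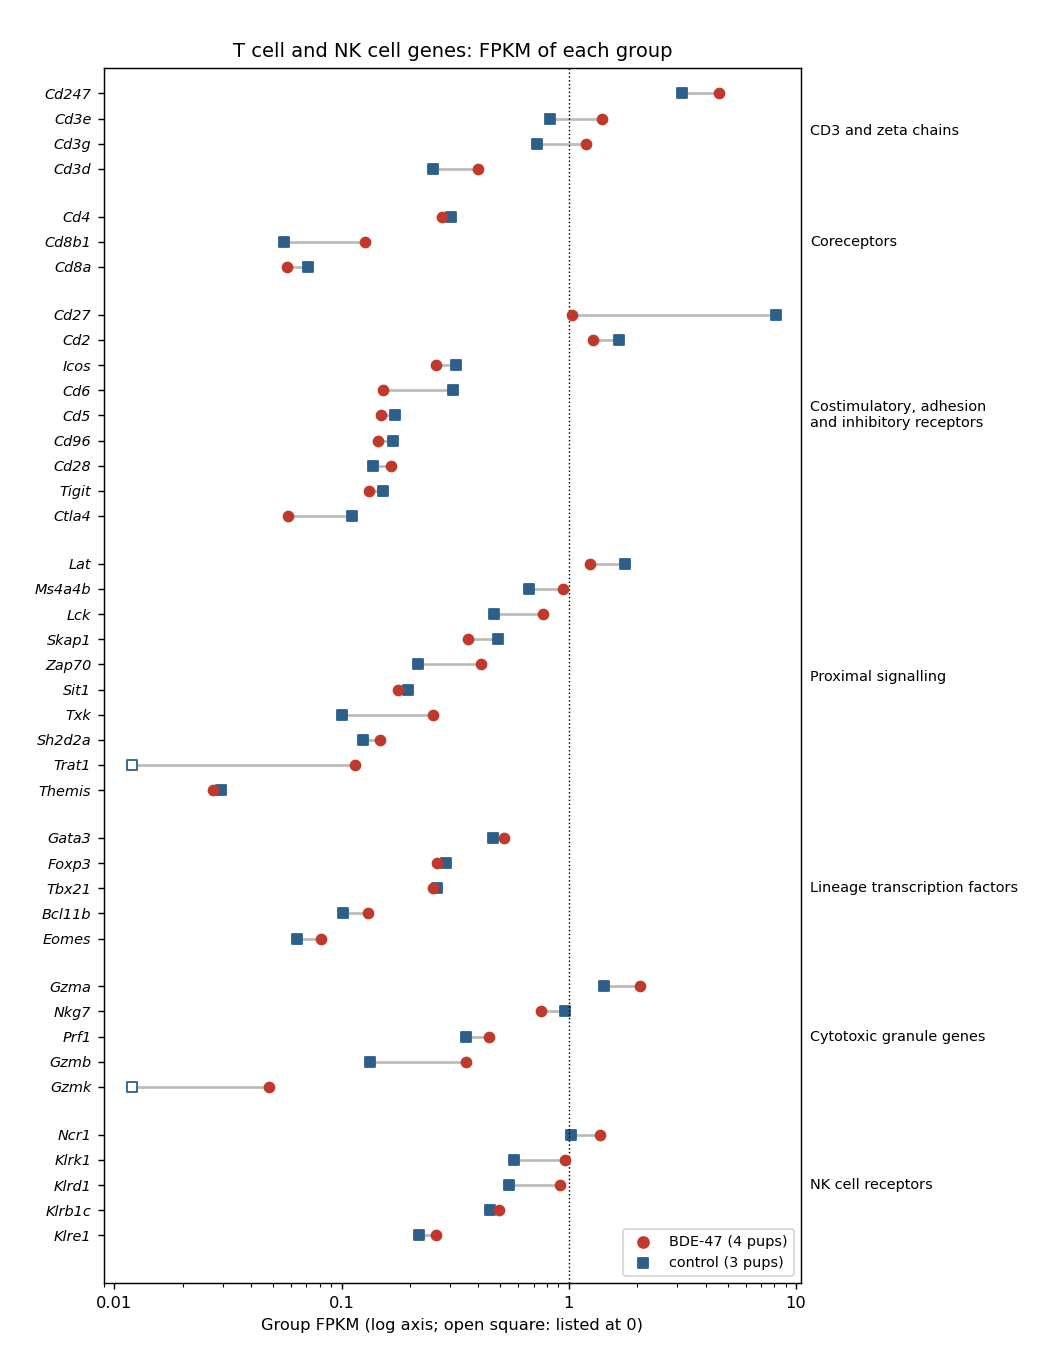
Group FPKM of the 41 T cell and NK cell genes on a log axis, arranged by role. Red circles are the BDE-47 group value (4 pups), blue squares the control group value (3 pups), open squares mark a listed 0, and the dotted line marks 1 FPKM. The 4 CD3 and zeta chain genes and the 5 NK cell receptor genes have their circle to the right of the square, and 33 genes lie left of the line in both groups.

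Most of the list lay below this level. In all, 31 genes were above 0 in both groups and under 1 FPKM in both, 17 of them higher and 14 lower in BDE-47 fat, where 48.6% of all named loci in this range were higher and 51% lower. Of the 31, 8 (25.8%) were higher by 1.5-fold or more, and 26.8% of all named loci in this range were. Another 2 of the 31 (6.45%) were lower by 1.5-fold or more, and 27% of all named loci in this range were. At 2-fold or more the shares were 9.68% higher, with 16.8% over all such loci, and 3.23% lower, with 17.5% over all such loci. At 1.5-fold the share of higher genes lay near that of all loci in this range, and is no result about these genes.

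Over all 39 genes above 0 in both groups, 22 were higher and 17 lower in BDE-47 fat, with a median log2 ratio of 0.25. Among all 20217 named loci above 0 in both groups, 50.2% were higher and 48.3% lower, and the median log2 ratio was 0.01. Of the 39 genes, 10 were higher by 1.5-fold or more (9.79% of all such loci) and 3 were lower (13.4%). At 2-fold or more, 3 were higher (5.58% of all such loci) and 2 lower (7.94%). These shares cover loci of every level, while most of the 39 genes were low. Of the 10 genes, 8 lay under 1 FPKM in both groups, where 26.8% of all named loci were higher by 1.5-fold or more. The counts and shares are thus of unlike level, and are not read as a result about these genes.

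The width of the scatter depends on level, and the genes were therefore set beside loci of like level. Among named loci with a mean of 1 to 5 FPKM, 10% had a log2 ratio above 0.37 and 10% one below −0.70. Cd247, Cd3e, Gzma and Ncr1 lay above the upper value and Cd27 below the lower one, of 7 genes in this range. Between 0.5 and 1 FPKM the upper value was 0.55, and Cd3g, Klrd1, Klrk1 and Lck lay above it, of 6 genes. Between 0.1 and 0.5 FPKM, where 21 of the genes lay, the upper value was 1.05 and only Gzmb and Txk lay above it. Another 5 genes had a mean under 0.1 FPKM and none of them lay outside the values of that range.

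**Figure D2:**
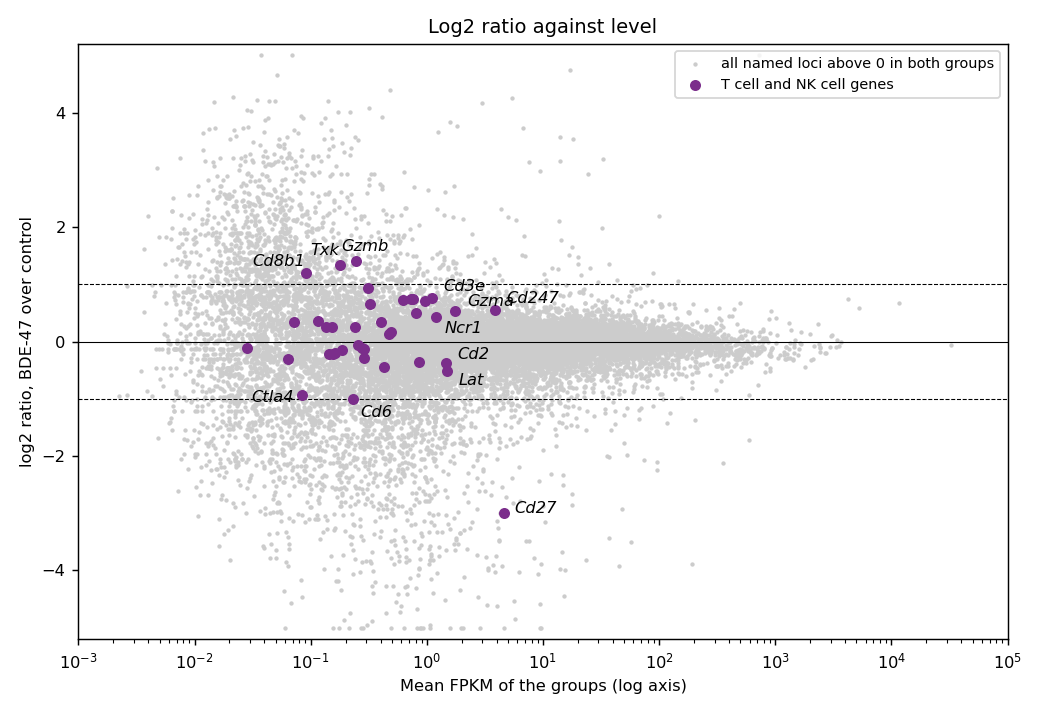
Log2 ratio of BDE-47 over control against the mean FPKM of both groups (log axis). Purple points are the 39 T cell and NK cell genes above 0 in both groups, grey points all 20217 named loci above 0 in both groups, and dashed lines mark 2-fold; grey ratios beyond 5 are drawn at 5. Cd27, at −2.99, stands apart from the other genes, and the grey cloud narrows as the level increases.

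The coreceptor genes were near the lower end of the table. Cd4, which helper T cells carry and some macrophages can also express, was at 0.277 FPKM in BDE-47 fat and 0.304 FPKM in control fat. Cd8a, the alpha chain gene of CD8, was at 0.0575 FPKM in BDE-47 fat and 0.0708 FPKM in control fat. Cd8b1, the beta chain gene, was at 0.127 FPKM in BDE-47 fat and 0.0556 FPKM in control fat, so the CD8 chain genes pointed in opposite directions at levels under 0.15 FPKM.

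The genes of costimulatory, adhesion and inhibitory receptors had lower group values in BDE-47 fat in 8 of 9 cases, with a median log2 ratio of −0.29. The 6 of them with a mean of 0.1 to 0.5 FPKM had a median of −0.22, and all named loci of that range had a median of −0.15, so most of these genes lay near their background. Another of the 8 is the joined locus of Cd27 described below. Cd2, an adhesion receptor of T and NK cells, was at 1.28 FPKM in BDE-47 fat and 1.66 FPKM in control fat, 1.29-fold lower. Cd6, an adhesion receptor of T cells, was at 0.153 FPKM in BDE-47 fat and 0.308 FPKM in control fat, 2.01-fold lower. Ctla4, an inhibitory receptor that regulatory T cells carry, was at 0.0583 FPKM in BDE-47 fat and 0.111 FPKM in control fat. Icos encodes a costimulator, Cd5 a brake on receptor signalling, and Cd96 and Tigit receptors that bind the poliovirus receptor. These genes lay between 0.132 and 0.319 FPKM in both groups, with log2 ratios between −0.29 and −0.20. Cd28, the main costimulator of naive T cells, was the exception, with 0.165 FPKM in BDE-47 fat and 0.138 FPKM in control fat.

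Cd27 encodes a costimulator of the TNF receptor family, and its value rests on which locus is taken. The table has 3 loci that name it, all with the same coordinates on chromosome 6 (125223602 to 125239934). This stretch reaches past the gene (125232622 to 125237010) on both sides and lies within Vamp1 (125215551 to 125245964), on the other strand. Vamp1 was at 4.14 FPKM in BDE-47 fat and 3.78 FPKM in control fat, and shares 0 exonic bases with Cd27 in GENCODE. Whether reads from outside Cd27 enter these loci was not tested. The locus with the highest mean joins Cd27 with the microRNA gene Mir8113 and was at 1.03 FPKM in BDE-47 fat and 8.17 FPKM in control fat, 7.94-fold lower. The next locus, which names Cd27 alone, was at 1.13 FPKM in BDE-47 fat and 1.09 FPKM in control fat, and the last at 0.651 FPKM in BDE-47 fat and 0.270 FPKM in control fat. Only the joined locus was lower in BDE-47 fat. Reads of the microRNA and its host cannot be told apart there: the 129 bases of Mir8113 (chromosome 6, 125234684 to 125234812) lie wholly within bases that GENCODE counts as exons of Cd27.

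The mature microRNA of this locus is shown because its gene is part of the locus with the lowest log2 ratio of the list. How much of that value comes from the microRNA was not tested, and the libraries were made from poly(A) RNA. Its sequence is from RefSeq (GRCm38.p6, chr6:125234756-125234777, minus strand), with the seed, bases 2 to 8, in capitals.
mmu-miR-8113: cAGGAGAGucaggggcaaguag

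The direction of the sum over the whole list depends on this locus. The 41 genes summed to 24.8 FPKM in BDE-47 fat and 27.5 FPKM in control fat. Without Cd27, the sum was 23.7 FPKM in BDE-47 fat and 19.3 FPKM in control fat, a ratio of 1.23. Without Cd27 and Cd247, it was 19.2 FPKM in BDE-47 fat and 16.2 FPKM in control fat, a ratio of 1.18.

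**Figure D3:**
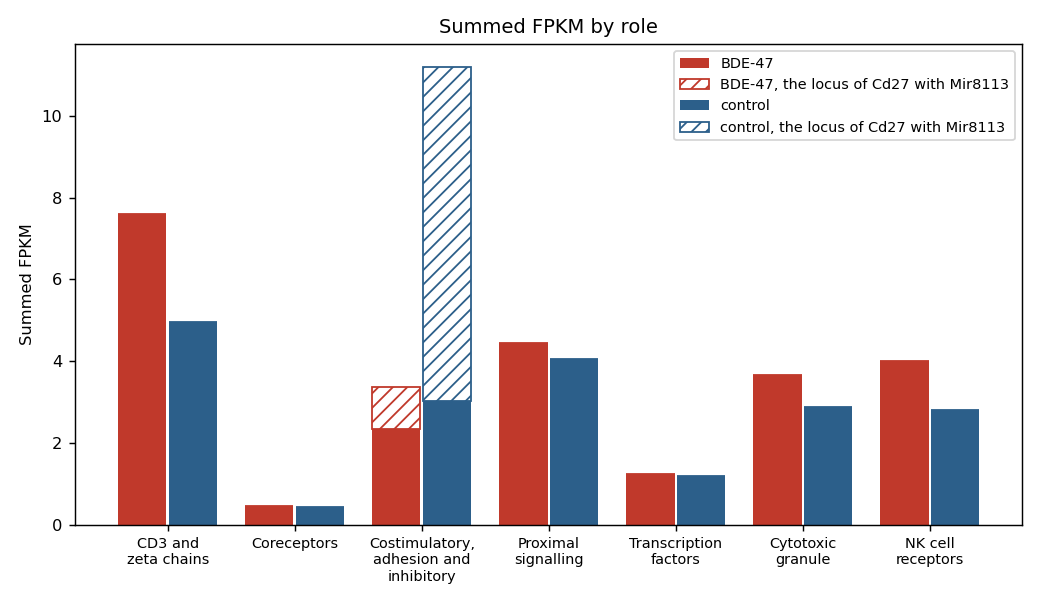
Summed FPKM of the genes of each role in the BDE-47 group (red, left bar) and the control group (blue, right bar); the hatched part is the locus that joins Cd27 with Mir8113. The hatched part is 1.03 FPKM in BDE-47 fat and 8.17 FPKM in control fat, and the CD3 and zeta chains sum to 7.59 FPKM in BDE-47 fat and 4.95 FPKM in control fat.

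The genes of the kinases next to the receptor had higher group values in BDE-47 fat, and the gene of the adaptor Lat had a lower one. Lck, the kinase that first phosphorylates the CD3 chains, was at 0.774 FPKM in BDE-47 fat and 0.470 FPKM in control fat, 1.65-fold higher, in a locus that also names Mir8119. Zap70, the kinase that binds the phosphorylated chains, was at 0.412 FPKM in BDE-47 fat and 0.216 FPKM in control fat, 1.91-fold higher. Its log2 ratio of 0.93 lay below the 1.05 that 10% of loci of its level exceed. Txk, a kinase of the TEC family, was at 0.253 FPKM in BDE-47 fat and 0.101 FPKM in control fat, 2.51-fold higher at a level where 10% of loci exceed a log2 ratio of 1.05. Lat, the adaptor that Zap70 phosphorylates, was at 1.24 FPKM in BDE-47 fat and 1.77 FPKM in control fat, 1.42-fold lower. Mast cells and platelets also express Lat.

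Of the other genes of this role, Ms4a4b, a membrane protein gene of T cells, was at 0.946 FPKM in BDE-47 fat and 0.669 FPKM in control fat. Skap1, an adaptor of integrin activation, was at 0.358 FPKM in BDE-47 fat and 0.490 FPKM in control fat. Sit1, Sh2d2a and Themis, which modulate receptor signalling, lay under 0.2 FPKM in both groups, with log2 ratios between −0.15 and 0.25. Trat1, an adaptor bound to the receptor complex, was at 0.115 FPKM in BDE-47 fat and was listed at 0 in control fat. Over the 9 genes above 0 in both groups, 5 were higher and 4 lower, with a median log2 ratio of 0.25.

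The transcription factor genes differed little between the groups. Gata3, which drives type 2 helper cells and innate lymphoid cells, was at 0.518 FPKM in BDE-47 fat and 0.463 FPKM in control fat. Foxp3, the factor of regulatory T cells, was at 0.264 FPKM in BDE-47 fat and 0.287 FPKM in control fat, in a locus that also names Ppp1r3fos. Of the 4577 bases in its GENCODE exons, 590 also lie in exons of Ccdc22 and 266 in exons of Ppp1r3f, both on the other strand. Ccdc22 was at 10.7 FPKM in BDE-47 fat and 12.1 FPKM in control fat. Reads of these genes may be mixed in the Foxp3 value, which was not tested. Tbx21, which encodes T-bet, was at 0.252 FPKM in BDE-47 fat and 0.262 FPKM in control fat. Eomes, its relative in NK and memory T cells, and Bcl11b, which fixes T cell identity, lay between 0.0638 and 0.130 FPKM. The 5 log2 ratios spanned −0.12 to 0.36.

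The genes of cytotoxic granules were mostly higher in BDE-47 fat. Gzma, a granzyme gene of NK and cytotoxic T cells, had the second-highest level of the list in BDE-47 fat, with 2.06 FPKM, against 1.42 FPKM in control fat, 1.44-fold higher. Gzmb, which encodes the granzyme that starts apoptosis in target cells, was at 0.354 FPKM in BDE-47 fat and 0.134 FPKM in control fat, 2.64-fold higher. Prf1, the perforin gene, was at 0.448 FPKM in BDE-47 fat and 0.351 FPKM in control fat. Nkg7, a granule membrane protein gene, was at 0.753 FPKM in BDE-47 fat and 0.959 FPKM in control fat, and so went the other way. Gzmk, a granzyme gene of memory T cells, was at 0.0477 FPKM in BDE-47 fat and was listed at 0 in control fat.

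All 5 NK cell receptor genes had higher group values in BDE-47 fat, with a median log2 ratio of 0.43. Of all named loci above 0 in both groups, 50.2% were higher. Ncr1, which encodes the activating receptor NKp46 and marks NK cells and some innate lymphoid cells, was at 1.38 FPKM in BDE-47 fat and 1.02 FPKM in control fat, 1.35-fold higher. Klrk1, the gene of the activating receptor NKG2D, was at 0.959 FPKM in BDE-47 fat and 0.574 FPKM in control fat, 1.67-fold higher. Klrd1, which encodes CD94, the partner chain of NKG2 receptors, was at 0.914 FPKM in BDE-47 fat and 0.543 FPKM in control fat, 1.68-fold higher. Klrk1 and Klrd1 lie in the NK gene cluster of chromosome 6, with starts 32.1 kb apart. Klrb1c, the NK1.1 gene, and Klre1, a lectin-like receptor gene, differed less, with log2 ratios of 0.13 and 0.25. Both had a mean of 0.1 to 0.5 FPKM, where 10% of all named loci exceed 1.05, so they lay within the usual scatter of their level.

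**Figure D4:**
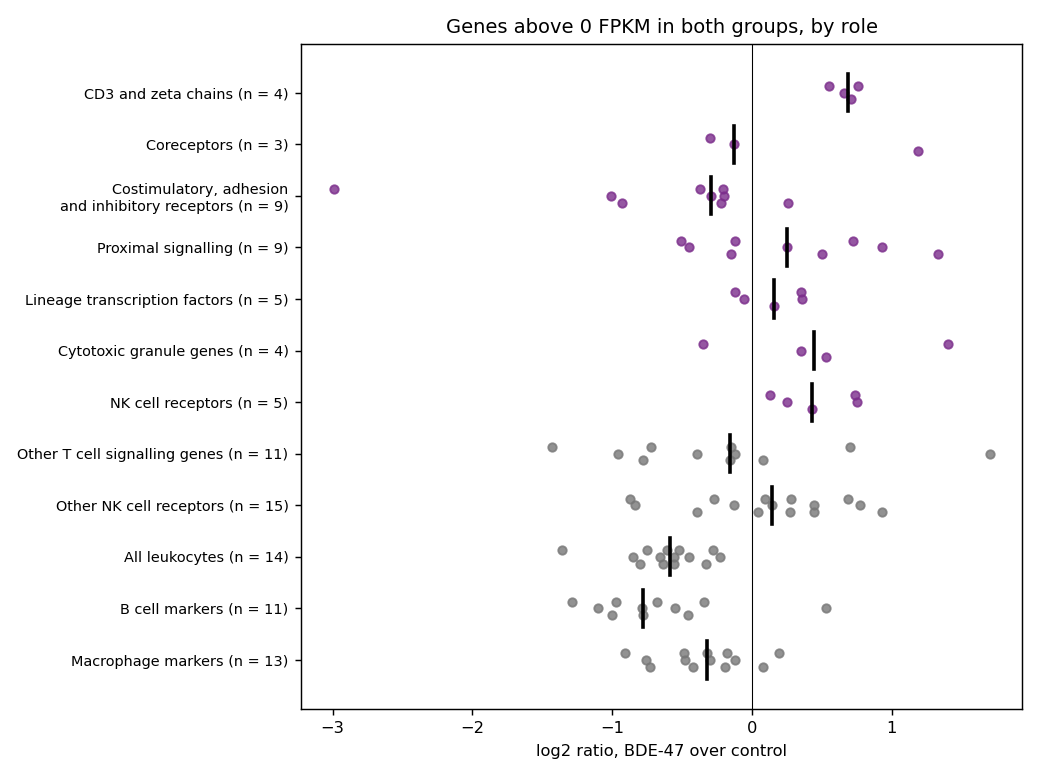
Log2 ratio of BDE-47 over control for each gene above 0 in both groups, by role; each point is a gene and the black bar is the median of the row. Purple rows are the T cell and NK cell genes and grey rows are lists set beside them. The CD3 row lies between 0.55 and 0.76, the NK cell receptor row between 0.13 and 0.75, and all 14 leukocyte genes lie below 0.

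Further genes of the same cells gave no common direction. Among 12 other T cell signalling genes, 11 were above 0 in both groups, 3 higher and 8 lower in BDE-47 fat, with a median log2 ratio of −0.16. Thy1, which stromal cells of fat also express, was at 16.4 FPKM in BDE-47 fat and 15.6 FPKM in control fat. Fyb, an adaptor gene that myeloid cells share, was at 4.26 FPKM in BDE-47 fat and 7.01 FPKM in control fat, 1.65-fold lower.

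Of 15 other NK cell receptor genes, 10 were higher and 5 lower in BDE-47 fat, with a median log2 ratio of 0.14. The locus of Klra1, an inhibitory Ly49 receptor gene, was at 2.57 FPKM in BDE-47 fat and 1.89 FPKM in control fat, and that of Klra9 at 0.927 FPKM in BDE-47 fat and 1.66 FPKM in control fat. The Ly49 genes are near-identical and both loci name more than 1 gene, so reads may be shared among them. Cd7, a gene of NK and T cells, was at 1.56 FPKM in BDE-47 fat and 0.914 FPKM in control fat.

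Among 19 cytokine and cytokine receptor genes, 15 were above 0 in both groups, 5 higher and 10 lower in BDE-47 fat. Il15ra and Il2rg, receptor genes for interleukin 15 and for several interleukins, were at 13.9 and 8.34 FPKM in BDE-47 fat and at 12.3 and 10.1 FPKM in control fat. Il7r, the receptor of interleukin 7, which keeps naive T cells alive, was at 4.53 FPKM in BDE-47 fat and 9.99 FPKM in control fat, 2.20-fold lower. Tnf, an inflammatory cytokine gene of macrophages and T cells, was at 0.460 FPKM in BDE-47 fat and 1.09 FPKM in control fat, 2.38-fold lower. Ifng, Fasl and Il4, effector genes of T and NK cells, were each under 0.15 FPKM in BDE-47 fat and listed at 0 in control fat, and Il17a was listed at 0 in both.

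Of the 13 loci of homing receptors and their ligands, 7 were higher and 5 lower, and Itgae, an integrin gene of tissue-resident T cells, was at 1.26 FPKM in both groups. S1pr1 was at 24.3 FPKM in BDE-47 fat and 22.9 FPKM in control fat. Cxcr3 and Cxcr6, chemokine receptor genes of effector T and NK cells, were 1.47-fold and 1.74-fold higher in BDE-47 fat, at 1.10 and 0.785 FPKM there and 0.747 and 0.451 FPKM in control fat. Ccr7, a receptor gene of naive T cells, was at 0.274 FPKM in BDE-47 fat and 0.426 FPKM in control fat.

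Of 15 transcription factor genes of naive and memory T cells, 8 were higher and 7 lower. Most of the level came from Id3, at 154 FPKM in BDE-47 fat and 165 FPKM in control fat, and Zbtb7b, at 40.5 FPKM in BDE-47 fat and 39.9 FPKM in control fat, which other cells of fat can express. Tcf7, a factor of naive T cells, was at 0.529 FPKM in BDE-47 fat and 1.13 FPKM in control fat, 2.14-fold lower. Lef1, of the same list, went the other way, with 0.158 FPKM in BDE-47 fat and 0.0860 FPKM in control fat, 1.84-fold higher. Satb1 and Bach2 differed little, with log2 ratios of −0.1 and −0.13. Of 7 regulatory T cell genes, 1 was higher and 6 lower, led by the locus that joins Tnfrsf4 with Sdf4, a gene that is not specific to T cells, at 134 FPKM in BDE-47 fat and 135 FPKM in control fat and by Lrrc32 at 8.17 FPKM in BDE-47 fat and 9.25 FPKM in control fat. Of 6 genes of type 2 innate lymphoid cells, 2 were higher and 4 lower. Arg1, which macrophages also express and which hepatocytes use in the urea cycle, was at 0.702 FPKM in BDE-47 fat and 7.73 FPKM in control fat, 11.0-fold lower, and Rora at 6.11 FPKM in BDE-47 fat and 5.502 FPKM in control fat.

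Genes shared by leukocytes had lower group values, unlike the CD3 and NK receptor genes. All 14 genes of that list were lower in BDE-47 fat, with a median log2 ratio of −0.59, and their sum was 255 FPKM in BDE-47 fat and 405 FPKM in control fat. Beside this list and the B cell and macrophage lists below, 48.3% of all named loci above 0 in both groups were lower. Ptprc, which encodes CD45, was at 10.7 FPKM in BDE-47 fat and 14.6 FPKM in control fat, and Cd52, a glycoprotein gene of lymphocytes and macrophages, at 37.5 FPKM in BDE-47 fat and 96.3 FPKM in control fat, 2.57-fold lower. Lsp1, a cytoskeletal gene, was at 44.6 FPKM in BDE-47 fat and 52.3 FPKM in control fat. Of 11 B cell markers, 10 were lower, with a median log2 ratio of −0.78; Cd79a, a chain of the B cell receptor, was at 2.71 FPKM in BDE-47 fat and 4.35 FPKM in control fat, Cd37 at 16.7 FPKM in BDE-47 fat and 21.1 FPKM in control fat, and Cd22 was 2.45-fold lower. Of 13 macrophage markers, 11 were lower, with a median log2 ratio of −0.32, led by the locus of Lyz2 at 523 FPKM in BDE-47 fat and 885 FPKM in control fat and by C1qa at 97.0 FPKM in BDE-47 fat and 121 FPKM in control fat. Whether the T and NK cell genes differed from these lists was not tested, because a test needs values per pup.

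Markers of other cell types also differed between the groups, and their part in the values above was not tested. All 10 hepatocyte markers were lower in BDE-47 fat, with sums of 225 FPKM in BDE-47 fat and 876 FPKM in control fat. Serpina1a, in a locus with its paralogs, was 1.39-fold lower, and Alb, Ahsg, Apoa1, Ttr, Fgb, Gc, Fga, Cps1 and Apob were 6.32-fold to 24.3-fold lower. The 8 epididymis markers summed to 0.274 FPKM in BDE-47 fat and 43.5 FPKM in control fat. Among them, Defb38 and Defb28 were listed at 0 in BDE-47 fat, and the locus of Crisp1, Lcn5 and Rnase9 were at 0.171, 0.0604 and 0.0152 FPKM in BDE-47 fat and at 18.6, 2.07 and 1.85 FPKM in control fat.

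Of 10 neutrophil and mast cell markers, 6 were higher and 4 lower in BDE-47 fat. The neutrophil genes S100a8 and S100a9 were 2.36-fold and 2.81-fold lower. The mast cell genes Mcpt4, Cpa3 (in a locus with Mir7007), Tpsb2, Kit and Cma1 were 2.81-fold, 2.14-fold, 1.82-fold, 1.38-fold and 1.33-fold higher. All 5 were above 1 FPKM in at least 1 group, where 50.8% of all named loci were higher. Under 1 FPKM, 1 gene of each cell type went the other way. The neutrophil gene Elane was 1.36-fold higher, at 0.953 FPKM in BDE-47 fat and 0.702 FPKM in control fat. The mast cell gene Fcer1a was 2.28-fold lower, at 0.0587 FPKM in BDE-47 fat and 0.134 FPKM in control fat. Of 9 dendritic cell markers, 4 were higher and 5 lower, with Itgax 2.099-fold lower and Zbtb46 1.06-fold higher. Of 6 lymph node stroma markers, 2 were higher, with Ccl19 1.53-fold higher and Cxcl13 1.49-fold lower. The thymocyte genes Rag1, Rag2, Dntt and Ptcra were under 0.1 FPKM in both groups, and Cd1d1, which fat cells also express, was at 158 FPKM in BDE-47 fat and 165 FPKM in control fat. Of 8 endothelial markers 7 were higher, Cdh5 and Pecam1 1.08-fold each, and of 10 adipocyte markers 6 were higher, with median log2 ratios of 0.28 and 0.07.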

How the data were processed

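RNA-seq libraries were made from poly(A) RNA of gonadal fat of 4 BDE-47 and 3 control pups. According to the methods and the submitters' processing notes, reads were filtered and trimmed in BaseSpace, mapped to mm10 with TopHat2, assembled with Cufflinks 2.1.1 and compared with Cuffdiff 2.1.1. Which annotation was used, whether strand was counted and how libraries were scaled to each other is not given in the sources used here. Per the deposited table, the authors gave 35534 loci with the log2 FPKM of each group, to 2 decimals, where −10 stands for 0 FPKM. Its 3 columns of the authors' own comparison (log2 ratio, q value, significance flag) were not used, and 1 line of the table was empty.

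FPKM values were computed as 2 to the power of the deposited log2 values, and log2 ratios from both group values with no pseudocount. The background was every named locus that exceeded 1 FPKM in either group, which is the filter the study applied, and a locus was counted at 1.5-fold or 2-fold. A gene joined with others in a locus took the value of that locus. The members, the lists and the rule for named genes were chosen with earlier results of these data known. All members above 1 FPKM were named, and of each other list the 2 genes with the highest mean FPKM and those changed at least 2-fold above 1 FPKM. Genes outside this rule (Cd7, Ifng, Fasl, Il4, Il17a, Itgae, Cxcr3, Cxcr6, Ccr7, Lef1, Satb1, Bach2, Ptprc, Tpsb2, Cma1, Elane, Fcer1a, Rag1, Rag2 and Dntt) were chosen after their values were seen. Some genes that the rule names are not reported here. No test was run, because values per pup are needed for one. The count function was tested on simulated data. Alternatives changed the filter, the pseudocount, the scaling between groups, the locus of each gene and the genes included. Gene positions are from GENCODE vM21 (GRCm38) and promoter and microRNA sequences from RefSeq (GRCm38.p6). Python 3.11.15, pandas 2.3.3, numpy 2.4.6 and matplotlib 3.10.9 were used.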

Additional observations from a re-analysis of the deposited data

How the results depend on the processing

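The log2 ratio of the sum over the list, BDE-47 over control, was −0.15 as reported, −0.12 with all loci that name a member and −0.16 after scaling by the median log2 ratio. It was 0.28 with loci that name 1 gene alone, 0.32 without Cd4, Gata3, Bcl11b, Cd27 and Skap1, which other cells of fat can also express, and 0.30 without the gene of the highest mean, Cd27. It was −0.27 without Cd247 and 0.24 without Cd27 and Cd247, both chosen after seeing the data. The reversals share their construction, which leaves out the locus that joins Cd27 with Mir8113 or takes another locus of Cd27, whose own log2 ratio was then 0.04.

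The median log2 ratio was 0.48 over the 8 genes above 1 FPKM, 0.25 over the 39 genes above 0 in both groups, 0.28 with a pseudocount of 1 FPKM, 0.03 over the 6 genes above 1 FPKM in both groups (chosen after seeing the data) and −2.99 above 5 FPKM, where Cd27 is the only gene left. It lay between 0.45 and 0.53 under the other alternatives. The count at least 1.5-fold higher was 2, but 10 among genes above 0 in both groups, 5 above a mean of 0.5 FPKM, and 0 above 5 FPKM, above 1 FPKM in both groups or with a pseudocount of 1 FPKM. The count at least 1.5-fold lower was 1, but 3 among genes above 0 in both groups, and 0 with loci that name 1 gene or without the 5 genes above. At least 2-fold lower it was 1, but 2 among genes above 0 in both groups and 0 under the last 2 alternatives, and at least 2-fold higher 0, but 3 among genes above 0 in both groups. The median of proximal signalling was 0.25, but −0.51 above 1 FPKM, where Lat is the only gene left. Of 78 alternatives of the 18 values for single genes and lists, this one and that of Cd27 turned a direction and 20 moved a log2 ratio by over 0.1. A pseudocount of 1 FPKM brought the median to 0.37 for the CD3 genes (0.69 without it), 0.23 for NK cell receptors (0.43), 0.18 for cytotoxic genes (0.44), 0.03 for proximal signalling (0.25), 0.02 for transcription factors (0.16), −0.02 for coreceptors (−0.13), −0.40 for B cell markers (−0.78) and −0.06 for costimulatory receptors (−0.29), whose median was −1.68 above 1 FPKM. Cd27 was at −1.77 with its 3 loci summed.

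No paired analysis was possible because the table holds no value per pup, and leaving out a pup was not possible for the same reason. The table holds no read counts, so no precision is given for the low values.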
